A study of Mus musculus with 10 samples.

Results

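The genes described here, 7 in number, were chosen by name from the gene table of the array: Ly9, Slamf1, Slamf6, Slamf7, Cd48 and Cd84, which encode receptors of the SLAM (signalling lymphocytic activation molecule) family, and Sh2d1a, which encodes their adaptor SAP. These 7 genes had 12 probe sets, out of 18194 genes and 45101 probe sets on the array. For each gene the probe set with the highest mean over the 10 arrays gave the value, and a gene was tested where at least 2 arrays reached log2 5, which left 9391 genes and 6 of the 7 members. RNA was measured in natural killer cells (NKC) from the spleen of ICR mice aged 6 weeks, either wild type (WT, Runx3 +/+) or Runx3-/- knockout (KO), a germline loss of the transcription factor in all cells of the mouse. NKC were enriched by negative selection, sorted for the DX5 antigen, and cultured for 7 days with recombinant human IL-2 at 1000 u/ml or with mouse IL-15. Each of the 10 arrays held cells of its own mouse, giving 3 WT and 3 KO arrays in IL-2 and 2 WT and 2 KO arrays in IL-15, and the sex was labelled only as male or female.

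SLAM receptors are surface proteins of haematopoietic cells. Most of them bind a copy of themselves on the neighbouring cell, whereas CD48 has no cytoplasmic tail and serves as the ligand of CD244 (2B4) and, in mice, of CD2. Once phosphorylated, their switch motifs bind SAP, a small SH2 protein that recruits the kinase Fyn and keeps away the phosphatases SHP-1 and SHIP1. In NKC this choice of partner sets whether contact with another haematopoietic cell activates or inhibits killing, and in humans loss of SAP causes X-linked lymphoproliferative disease.

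The 6 receptor genes lie in 1 cluster on chromosome 1, and Sh2d1a lies on the X chromosome. Because the study compared cells with and without a RUNX factor, the start regions of the cluster were searched for 4 forms of the RUNX word on both strands, namely TGTGGT together with TGTGGC and likewise TGCGGT together with TGCGGC. RefSeq promoter sequences (GRCm38.p6, 250 bases before to 50 after the start) were matched for 5 of the 7 members, all but Ly9 and Sh2d1a. A word was present in 3 of the 5, with 1 word each, and in 45.2% of all 32851 promoters of the same length. The promoters with a word, and that of Slamf7, which had none, are shown 5′ to 3′ on the strand of the gene with the word in capitals. They span chr1:171917212-171917511 (plus strand) for Slamf6, chr1:171681742-171682041 (plus) for Cd48, chr1:171839447-171839746 (plus) for Cd84 and chr1:171648950-171649249 (minus) for Slamf7.
Slamf6: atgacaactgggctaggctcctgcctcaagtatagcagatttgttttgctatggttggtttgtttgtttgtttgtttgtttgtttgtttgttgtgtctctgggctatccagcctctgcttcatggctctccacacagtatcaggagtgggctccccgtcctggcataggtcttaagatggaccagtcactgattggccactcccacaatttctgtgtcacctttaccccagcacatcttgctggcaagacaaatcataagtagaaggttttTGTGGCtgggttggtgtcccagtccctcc
Cd48: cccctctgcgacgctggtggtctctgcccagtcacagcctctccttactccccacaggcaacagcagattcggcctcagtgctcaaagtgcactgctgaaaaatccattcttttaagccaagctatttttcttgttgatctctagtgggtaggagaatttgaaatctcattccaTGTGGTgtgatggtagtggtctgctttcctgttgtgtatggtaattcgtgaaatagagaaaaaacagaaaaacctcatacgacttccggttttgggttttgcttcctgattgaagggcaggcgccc
Cd84: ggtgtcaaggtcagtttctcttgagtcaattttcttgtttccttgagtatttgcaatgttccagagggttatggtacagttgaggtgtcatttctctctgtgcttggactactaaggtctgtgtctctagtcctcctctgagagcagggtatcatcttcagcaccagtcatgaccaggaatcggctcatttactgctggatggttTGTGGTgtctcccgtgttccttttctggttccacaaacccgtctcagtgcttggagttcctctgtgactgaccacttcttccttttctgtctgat
Slamf7: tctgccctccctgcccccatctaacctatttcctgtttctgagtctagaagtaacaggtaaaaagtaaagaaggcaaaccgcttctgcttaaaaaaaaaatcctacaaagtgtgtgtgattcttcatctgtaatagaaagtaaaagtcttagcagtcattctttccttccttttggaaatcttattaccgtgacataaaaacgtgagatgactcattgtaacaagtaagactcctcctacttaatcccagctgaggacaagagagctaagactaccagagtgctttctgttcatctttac
Counted from the start, the word began at 21 in Slamf6 (TGTGGC), at -76 in Cd48 and at -45 in Cd84 (both TGTGGT). A match describes the letters only, and the absence of one in Slamf7 and Slamf1 says only that these letters are not in this window.

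Values are deposited log2 signals, on which 1 unit is a doubling, and levels were not compared between probe sets. Same-numbered WT and KO arrays mirrored each other: their sums were equal for every number within a cytokine, to within 0.00014 over all probe sets. Differences between pairs were thus taken out before deposit, and a high WT array stands opposite a low KO array. KO effects therefore rest on pairs, of which IL-2 has 3 and IL-15 has 2, and the pair entered their fit as a block. A fit without the block counts too many residual degrees of freedom, so its p-values are too small. Runx3 itself had mean signals of 11.65 in WT and 11.07 in KO in IL-2 and of 12.48 and 11.38 in IL-15. Whether this probe set lies in the deleted part is not given in the sources used here, so its signal checks no label. Ncr1, the gene of the NKC receptor NKp46, had signals of 9.47, 10.11 and 9.15 in WT and 11.80, 11.16 and 12.12 in KO in IL-2, and was called higher in KO there (2.11 ± 0.98, SD, 3 pairs; adjusted p = 0.0170). In IL-15 it lay at 11.80 and 12.34 in WT and at 12.36 and 11.82 in KO, which overlapped, while Itga2, the gene of the DX5 antigen, was under log2 5 on all arrays. Of the 10 tested NK cell marker genes, Ncr1 and Tbx21 (1.42) were called higher in KO in IL-2 and Prf1 (-1.73) lower. Over all genes 10.5% were called higher and 9.17% lower. In IL-15 none of the 10 was called, beside 1.3% of all genes. Their median difference was 0.04 in IL-2 and -0.30 in IL-15. Xist, the RNA of the inactive X chromosome, lay at 4.64 to 5.37 on the IL-2 arrays and at 14.28 to 14.66 on the IL-15 arrays, and the Y-linked Eif2s3y at 7.31 to 9.17 and at 2.34 to 2.44, so cytokine and sex of the mice cannot be told apart.

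Ly9 (CD229), a receptor that binds itself and recruits SAP, was the member that differed most between KO and WT in IL-2. Its signals (1449156_at) were 3.95, 4.31 and 4.22 in the WT arrays and 8.10, 7.74 and 7.83 in the KO arrays. All 3 KO arrays were well above all 3 WT arrays, none of which reached log2 5. In IL-15 the signals were 5.05 and 6.09 in WT and 8.22 and 7.17 in KO, again without overlap but with both WT arrays above those of IL-2. The KO minus WT difference in IL-2 was 3.73 ± 0.37 (SD, 3 pairs), with an SE of 0.41 and an adjusted p of 0.00377 (limma). Set against log2 5, because the WT mean was under it, this was at least 7.40-fold higher in KO. Ly9 was the only member of the 6 tested that passed the adjusted p under 0.05 and 1.5-fold in this comparison, beside 19.7% of all genes tested in either direction, 10.5% higher and 9.17% lower. In IL-15 the pair differences were 3.17 and 1.08, with a mean of 2.13 ± 1.48 (SD, 2 pairs), 4.37-fold, and the adjusted p was 0.118. Without the block, where p-values are too small, Ly9 was called in IL-15 (limma, adjusted p = 0.00977). The KO effect was 1.60 smaller in IL-15 than in IL-2 (difference -1.60, SE 0.66, adjusted p = 0.416), which did not pass the threshold. The size of that difference rests on WT signals under log2 5 in IL-2.

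**Figure D1:**
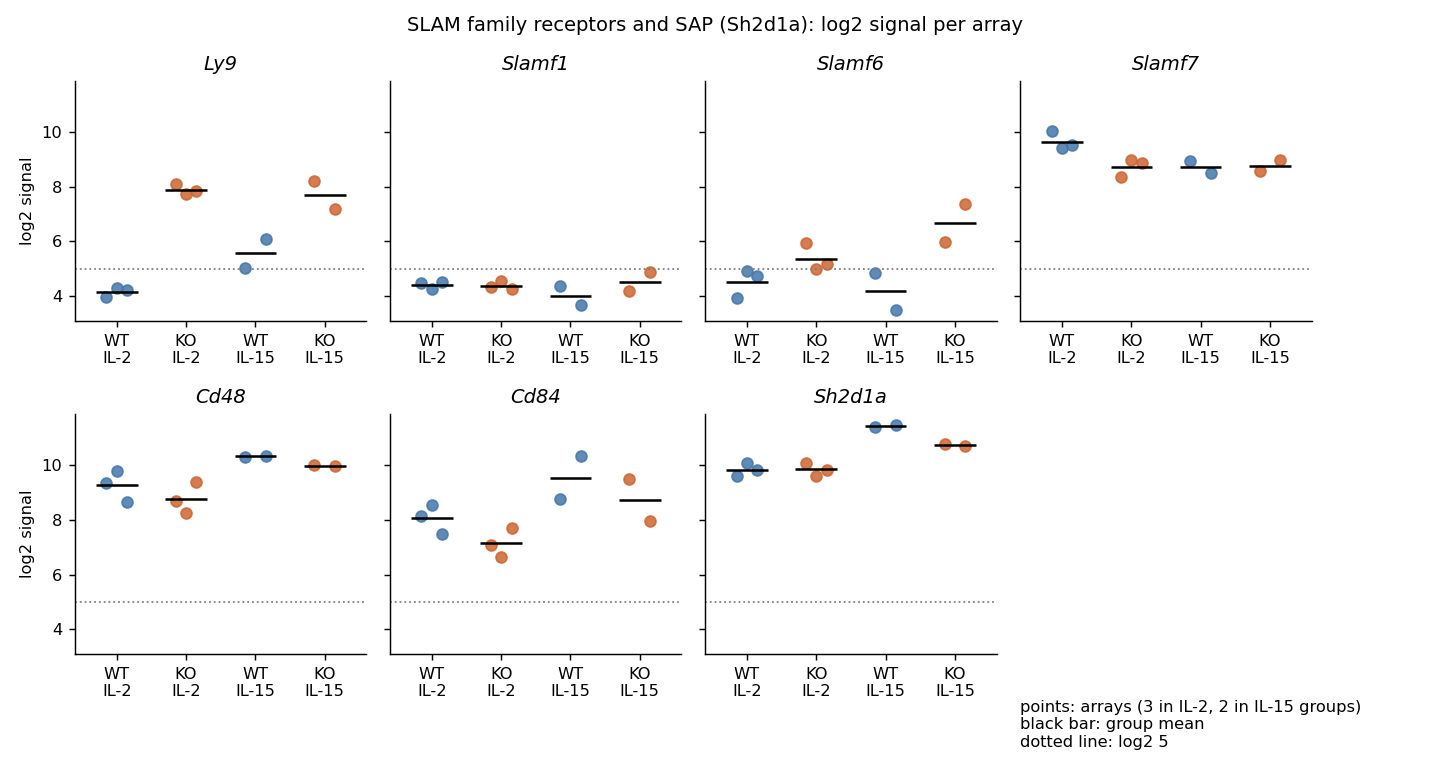
Log2 signal (y axis) of the 7 genes on each array (points), by genotype and cytokine (x axis), with the group mean as a black bar and log2 5 as a dotted line. The 3 KO arrays of Ly9 in IL-2 lie between 7.74 and 8.10 and the 3 WT arrays between 3.95 and 4.31, while Slamf1 stays under log2 5 throughout.

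Ly9 is also known from T and B cells, whose markers were therefore set beside it. Of 8 B cell genes with a probe set, 6 (Cd79a, Cd79b, Ms4a1, Pax5, Cd22 and Fcmr) were under log2 5 on all arrays. The 2 others, the kinase gene Blk and the antibody heavy chain gene Ighm, were called higher in KO in IL-2. Blk reached log2 5 only on the KO arrays in IL-2, so its call there supports nothing. The summed linear signal of the list was 446.4 to 487.1 in WT and 2295 to 2334.4 in KO in IL-2, and 921.2 to 1721.9 and 1735 to 3275.2 in IL-15. Most of each sum was Ighm, which in IL-2 lay at log2 8.64 to 8.78 in WT and 10.86 to 11.01 in KO. In IL-15 no B cell gene was called, Blk was under log2 5 on all arrays, and Ighm differed by 0.94 (adjusted p = 0.448). Of 10 T cell genes with a probe set, 5 (Cd5, Cd6, Cd4, Cd8a and Cd8b1) were under log2 5 on all arrays, and the transcription factor gene Bcl11b was called higher in KO by 3.15 in IL-2 and by 1.80 in IL-15. It was the only one of the 5 tested T cell genes that was called: Cd3d, Cd3e, Cd3g and Cd28 gave 0.90, 1.14, -0.56 and -0.17 in IL-2 and -0.04, 0.23, -2.13 and 0.45 in IL-15. The T cell sums overlapped in IL-2 (2928.1 to 4382.8 in WT and 3658.8 to 4960.2 in KO) and in IL-15 (5455.3 to 7781.1 and 7542.1 to 8641.4). Cd28, which was not called, was the largest part of each T cell sum, so their overlap says little about the other genes. By the study's methods nearly all cells of the NKC cultures were NKC carrying NKp46 at the end. The part of other cells in the Ly9 difference was not tested, and in bulk RNA more cells of a type and more RNA per cell cannot be told apart.

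Slamf6 (Ly108), a self-binding receptor that pairs with SAP and is carried by NK and T cells, was low in WT and reached log2 5 only on KO arrays. Its signals (1420659_at) were 3.94, 4.91 and 4.74 in WT and 5.96, 4.99 and 5.16 in KO in IL-2. They were 4.86 and 3.48 in WT and 5.98 and 7.36 in KO in IL-15, so the groups did not overlap in either cytokine. No WT array reached log2 5, so Slamf6 was tested only through its KO arrays. The difference in IL-2 was 0.84 ± 1.03 (SD, 3 pairs; adjusted p = 0.344), and pair 1 alone gave 2.02 whereas pairs 2 and 3 gave 0.08 and 0.42. The difference in IL-15 was 2.50 ± 1.95 (SD, 2 pairs: 1.12 and 3.88), at least 3.18-fold, with an adjusted p of 0.178. Without the block this second value was called (adjusted p = 0.0274), but a gene that entered through its high group alone had to differ, so these p-values support nothing. The other 2 probe sets of the gene stayed under log2 5, at 2.39 to 4.16 (1425086_a_at) and 1.96 to 2.66 (1457773_at).

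Slamf1 (CD150), the founding receptor of the family and best known from T cells, B cells and blood stem cells, had no array at log2 5 and was not tested. Its highest probe set (1425570_at) gave 4.46, 4.26 and 4.53 in WT and 4.34, 4.54 and 4.27 in KO in IL-2, and 4.36 and 3.66 in WT and 4.17 and 4.88 in KO in IL-15. Those ranges overlapped in both cytokines. The other 2 probe sets lay at 2.57 to 2.93 (1425571_at) and 2.56 to 2.69 (1425569_a_at).

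Slamf7 (CRACC), which binds itself and signals in NKC through the adaptor EAT-2 rather than SAP, was highest in WT cells in IL-2. Its signals (1453472_a_at) were 10.03, 9.41 and 9.51 in WT and 8.34, 8.97 and 8.87 in KO. Every WT array was above every KO array. The difference was -0.93 ± 0.67 (SD, 3 pairs), with KO 1.90-fold lower and all 3 pairs below 0, but the adjusted p was 0.0956. Without the block, where p-values are too small, Slamf7 was called in IL-2 (limma, adjusted p = 0.0134). In IL-15 the signals were 8.94 and 8.52 in WT and 8.57 and 8.99 in KO, which overlapped. Their mean difference was 0.05 ± 0.59 (SD, 2 pairs; adjusted p = 0.988). The difference between the 2 KO effects was 0.98 (SE 0.53, adjusted p = 0.511).

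Cd48, the GPI-anchored ligand of CD244, overlapped between WT and KO in IL-2. Its signals (1427301_at) were 9.36, 9.80 and 8.66 in WT and 8.68, 8.24 and 9.38 in KO, and the pair differences of -0.68, -1.56 and 0.72 had opposite signs. Their mean was -0.51 ± 1.15 (SD, 3 pairs; adjusted p = 0.430). In IL-15 the signals were 10.31 and 10.33 in WT and 9.99 and 9.97 in KO. Both KO arrays were lower, by -0.34 ± 0.04 (SD, 2 pairs), 1.26-fold, with an adjusted p of 0.871.

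Cd84, a self-binding receptor that is abundant on many leukocytes and mast cells, varied widely between pairs. Its signals (1422875_at) were 8.13, 8.56 and 7.50 in WT and 7.08, 6.66 and 7.72 in KO in IL-2, and 8.77 and 10.32 in WT and 9.50 and 7.94 in KO in IL-15. The groups overlapped in both cytokines. The difference was -0.91 ± 1.07 (SD, 3 pairs; adjusted p = 0.342) in IL-2 and -0.82 ± 2.20 (SD, 2 pairs; adjusted p = 0.747) in IL-15, where the pairs gave 0.73 and -2.38. The second probe set (1446505_at) lay at 1.94 to 2.18. Of 8 mast cell and basophil genes, 4 were under log2 5 on all arrays (Fcer1a, Ms4a2, Hdc and Gata2) and 4 were tested. Called lower in KO were Mcpt8 and Cma1 in IL-2 and Mcpt8 and Cpa3 in IL-15, whereas Kit differed by -0.22 in IL-2 (adjusted p = 0.677) and -1.80 in IL-15 (adjusted p = 0.111). No KO array of Cpa3 reached log2 5, so Cpa3 was tested only through its WT arrays and its call supports nothing. The summed linear signal of the 8 genes was 7761.5 to 27293.8 in WT and 1880.3 to 3168.5 in KO in IL-2. In IL-15 those sums were 14549.1 to 18918.1 and 3995.3 to 4907.9. Most of each sum was Mcpt8 in WT in IL-2, and Kit in KO in IL-2 and in both genotypes in IL-15. Kit, which was not called, lay in IL-15 at log2 13.74 to 14.03 in WT and 11.94 to 12.23 in KO. The IL-15 sums thus describe mainly that gene. Of 7 tested macrophage and dendritic cell genes, Cd14 (-3.88) was called lower in KO in IL-2, beside 9.17% of all genes. None was called higher there, and none was called in IL-15. The sums of that list overlapped between WT and KO in both cytokines. Of 4 platelet genes with a probe set only Pf4 was tested, and it was not called. The part of any of these cell types in the values of Cd84 and Cd48 was not tested.

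Sh2d1a, the gene of SAP itself, had nearly the same mean in WT and KO in IL-2. Its signals (1449393_at) were 9.60, 10.07 and 9.84 in WT and 10.08, 9.61 and 9.84 in KO, which overlapped. KO exceeded WT by 0.01 ± 0.47 (SD, 3 pairs; adjusted p = 0.980). This value changed sign, to -0.00087 after centring of the arrays and to -0.085 after quantile normalization. In IL-15 the signals were 11.40 and 11.47 in WT and 10.79 and 10.72 in KO. Both KO arrays were below both WT arrays, by -0.69 ± 0.10 (SD, 2 pairs), 1.61-fold, but the adjusted p was 0.446.

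The members had no common direction with genotype, with 1 called higher and 5 not called in IL-2. The median difference of the 6 tested members was -0.25 in IL-2 and -0.14 in IL-15, against 0.11 and -0.01 over all genes tested. KO and WT arrays did not overlap for 3 of 6 members in IL-2 (Ly9, Slamf6 and Slamf7), beside 54.4% of all genes (31.1% with KO above and 23.2% with KO below), and for 4 of 6 in IL-15 (Ly9, Slamf6, Cd48 and Sh2d1a), beside 64.6% (31.7% above and 32.9% below). Slamf6 stands in both counts only through its KO arrays. No member was called in IL-15, where 1.3% of genes were (0.458% higher and 0.841% lower). No member and no gene was called for the difference between the 2 KO effects by limma with the block (0% of 9391), although 1106 genes had an unadjusted p under 0.05 and 1157 genes were called without the block. Among the 6 members the median of that difference was 0.13.

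**Figure D2:**
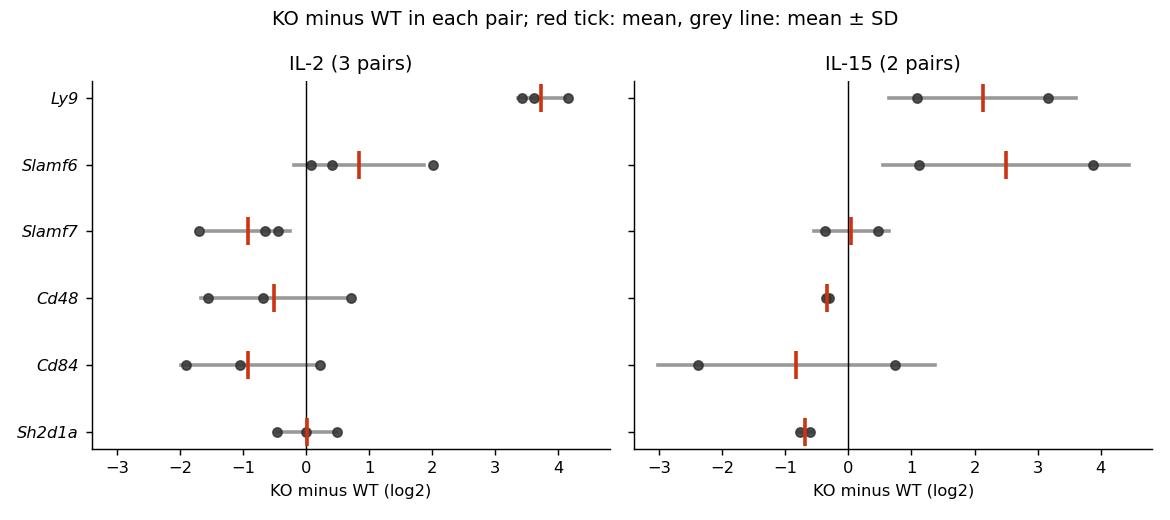
Log2 difference of KO from WT (x axis) for the 6 tested genes in each pair (points), with the mean as a red tick and the mean ± SD as a grey line, in IL-2 (3 pairs) and IL-15 (2 pairs). The 3 Ly9 pairs in IL-2 lie between 3.43 and 4.15, whereas the pairs of Cd48 and Cd84 in IL-2 lie on both sides of 0.

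The second question of the design was how the 2 cytokines differed within a genotype. These p-values came from a fit without the block, because pairs lie within a cytokine. With pair differences removed they are too small by an unknown amount, and the sex difference runs along the cytokines. Sh2d1a was higher in IL-15 in both genotypes, by 1.60 in WT (3.04-fold, SE 0.18, adjusted p = 0.000236) and by 0.91 in KO (1.88-fold, SE 0.18, adjusted p = 0.00389), with every IL-15 array above every IL-2 array of its genotype. It is X-linked and was measured beside the Xist difference given above. Cd48 was higher in IL-15 by 1.04 in WT (2.06-fold, adjusted p = 0.0443) and by 1.22 in KO (2.32-fold, adjusted p = 0.0255), and the arrays did not overlap, but these calls were lost in 9 and 5 of 15 alternatives. In WT the Cd48 call was lost without WT replicate 1 or 3 or KO replicate 1 in IL-2, or without any 1 of the IL-15 arrays, with adjusted p up to 0.146. In KO it was lost without KO replicate 1 or 2 in IL-2 or either KO array in IL-15, with adjusted p up to 0.101. Cd84 had IL-15 minus IL-2 differences of 1.48 in WT (adjusted p = 0.0674) and 1.57 in KO (adjusted p = 0.0569), neither of which passed. Its arrays did not overlap between the cytokines in either genotype. The share of all genes without overlap between the cytokines was not counted, so for these members the lack of overlap is a description only.

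Ly9 and Slamf7 were called between the cytokines in WT cells. In WT, Ly9 was higher in IL-15 by 1.41 (SE 0.36, adjusted p = 0.0113), at least 1.48-fold, and without WT replicate 2 in IL-15 the value was 0.89 (adjusted p = 0.102). In KO the same difference was -0.19 (adjusted p = 0.681). Slamf7 was lower in IL-15 in WT by -0.92 (1.90-fold, adjusted p = 0.0194) and differed by 0.05 in KO (adjusted p = 0.889). The Slamf7 call in WT was lost without WT replicate 1 in IL-2 (adjusted p = 0.0563) or without WT replicate 2 in IL-15 (adjusted p = 0.138). Slamf6 gave -0.36 in WT (adjusted p = 0.603) and 1.30 in KO (adjusted p = 0.0778). In all, 4 of 6 members were called in WT (3 higher and 1 lower), beside 48% of all genes (29.4% higher and 18.7% lower), and 2 of 6 in KO (both higher), beside 46.1% (23.6% higher and 22.5% lower). The median member difference was 1.23 in WT and 1.06 in KO, against 0.18 and -0.08 over all genes.

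The order of the 4 group means was the same for Cd48 and Cd84 and differed among the other tested members. For Ly9 the order from low to high was WT in IL-2, WT in IL-15, KO in IL-15 and KO in IL-2, and the KO groups overlapped each other. Slamf6 ran from WT in IL-15 through WT in IL-2 and KO in IL-2 to KO in IL-15, and the WT groups overlapped each other. Slamf7 had its highest mean in WT in IL-2 (9.65), and the other 3 groups (8.73 in KO in IL-2, 8.73 in WT in IL-15 and 8.78 in KO in IL-15) overlapped. Cd48, Cd84 and Sh2d1a all had their highest mean in WT in IL-15, at 10.32, 9.54 and 11.44, followed by KO in IL-15 at 9.98, 8.72 and 10.75. For Cd84 no neighbouring groups in this order were free of overlap, and for Cd48 and Sh2d1a the 2 IL-2 groups overlapped.

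Between members, likeness over the 10 arrays is given as Pearson's r, a description with no test. It was 0.87 for Cd48 with Cd84, 0.82 for Cd48 with Sh2d1a and 0.77 for Cd84 with Sh2d1a, 0.56 for Ly9 with Slamf6, and -0.79 for Ly9 with Slamf7. These describe 10 arrays that share 4 group means and mirrored pairs. The 3 tested genes most like each member by the same measure were Tnfsf14, Kctd6 and Abhd14b for Ly9 (r = 0.992, 0.991 and 0.991), Gtdc1, Rap1gds1 and Zfhx3 for Slamf6 (0.979, 0.932 and 0.932), and Nxph3, Rhobtb3 and Ap5z1 for Slamf7 (0.983, 0.963 and 0.950). They were Klhl9, Cenpq and Apool for Cd48 (0.986, 0.983 and 0.978), 4921524J17Rik, Eif4a2 and Sclt1 for Cd84 (0.985, 0.979 and 0.977), and AI987944, 4833420G17Rik and Gsap for Sh2d1a (0.996, 0.991 and 0.989). Tnfsf14, the TNF family ligand LIGHT, had group means of 3.15 in WT and 8.20 in KO in IL-2 and of 4.60 in WT and 8.04 in KO in IL-15.

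The receptors and signalling genes around the family were described from a list of 36 names, of which 29 had a probe set and 27 were tested. Slamf8 and Slamf9, which also encode SLAM receptors, lay near log2 2 on all arrays and were not tested. In IL-2, 7 of the 27 were called higher and 2 lower in KO, beside 10.5% and 9.17% of all genes, and the median difference was 0.51 against 0.11 over all genes. None was called in IL-15, where the median was 0.18. The difference was above 0 for 18 of the 27 genes in IL-2 and for 16 in IL-15. The share of all genes above 0 was not counted, so these counts are a description only.

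Cd2, the adhesion receptor that binds CD48 in mice, had signals of 9.39, 9.41 and 9.61 in WT and 11.70, 11.68 and 11.48 in KO in IL-2. Its KO arrays were all higher, by 2.15 ± 0.24 (SD, 3 pairs), 4.44-fold (adjusted p = 0.00481). In IL-15 it was 12.39 and 12.74 in WT and 12.69 and 12.34 in KO, which overlapped. Cd244a, the gene of the CD48 receptor 2B4, had signals of 13.06, 13.16 and 13.57 in WT and 12.58, 12.48 and 12.07 in KO in IL-2, with a difference of -0.88 ± 0.54 (adjusted p = 0.0878). All its WT arrays in IL-2 were above all its KO arrays, but the test was not passed.

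Downstream of the receptors, the tyrosine kinase genes Syk, by 1.56 ± 0.71 (adjusted p = 0.0196), and Zap70, by 1.24 ± 0.20 (adjusted p = 0.0150), were higher in KO in IL-2. Csk, which encodes a kinase that restrains Src family kinases, was higher by 1.86 ± 0.34 (adjusted p = 0.00574). The adaptor gene Lat was higher by 1.17 ± 0.05 (adjusted p = 0.0164). Of the phosphatases that bind the same receptors, Ptpn6 (SHP-1) was higher by 1.46 ± 0.75 (adjusted p = 0.0376) and Inpp5d (SHIP1) by 1.35 ± 0.63 (adjusted p = 0.0255), while Ptpn11 (SHP-2) differed by 0.12 ± 0.58 (adjusted p = 0.810) with overlapping groups. Fyn, the kinase that SAP recruits, differed by 0.85 ± 0.63 (adjusted p = 0.0919). The 2 genes that were lower were Cblb, a ubiquitin ligase that dampens receptor signals, by -1.71 ± 0.87 (adjusted p = 0.0242), and Malt1, the protease of the CARMA1 and BCL10 complex, by -1.59 ± 0.86 (adjusted p = 0.0242). Of these 9 called genes, 8 had the same sign in IL-15, with Cd2 (-0.05) as the exception. How often called genes kept their sign over the whole array was not counted. The ± values are SDs over 3 pairs.

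**Figure D3:**
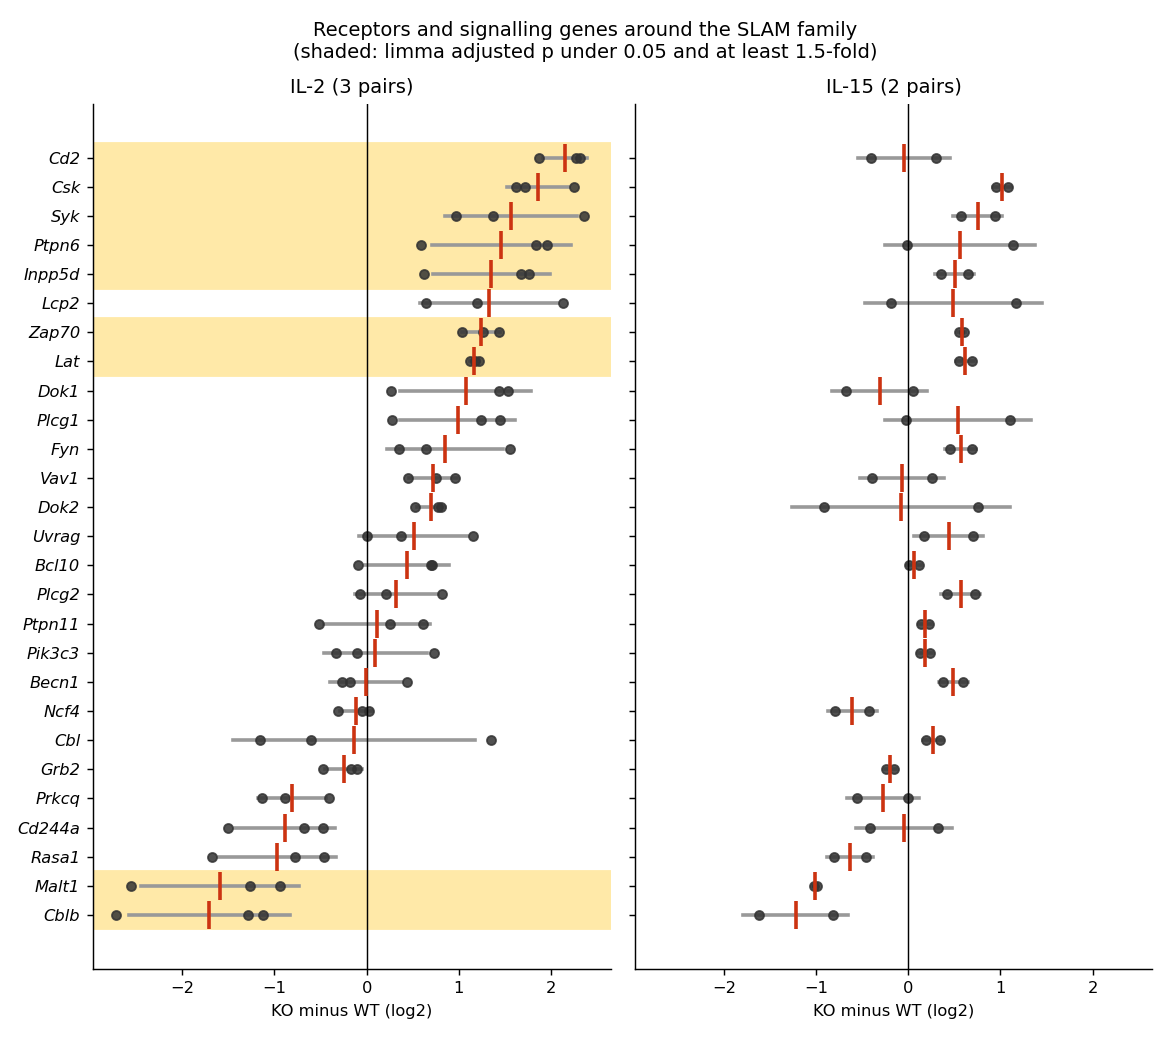
Log2 difference of KO from WT (x axis) for the 27 tested receptor and signalling genes in each pair (points), with the mean as a red tick and the mean ± SD as a grey line; shading marks the genes called in that cytokine. In IL-2, 7 shaded genes lie above 0 and 2 below, and in IL-15 no gene is shaded.

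Along chromosome 1 the cluster runs in the order Cd244a, Ly9, Slamf7, Cd48, Slamf1, Cd84 and Slamf6. The Ly9 difference in IL-2 stood between those of its direct neighbours Cd244a (-0.88) and Slamf7 (-0.93), which had the opposite sign and were not called. At the other end of the cluster, Slamf6 (0.84 in IL-2 and 2.50 in IL-15) stood beside Cd84 (-0.91 and -0.82). Of 17 other genes in a window reaching 8 genes to each side, 10 were tested, and 1 was called in IL-2 and 0 in IL-15, beside 19.7% and 1.3% of all genes. That gene was F11r, which encodes the junctional adhesion molecule JAM-A, and its signals were 6.64, 5.64 and 7.26 in WT and 3.56, 4.55 and 2.93 in KO in IL-2. All its WT arrays were higher, and KO minus WT was -2.83 ± 1.63 (SD, 3 pairs; adjusted p = 0.0215). Since all 3 KO arrays were under log2 5, KO was at least 2.85-fold lower. No KO array reached log2 5 in either cytokine, so F11r was tested only through its WT arrays and its p-value supports nothing. In a wider list of 36 genes around the cluster, 20 were tested. Besides F11r, Tomm40l (1.21) and Igsf8 (1.10) were called in IL-2, both higher, and none was called in IL-15. Over all genes the shares called were 19.7% in IL-2 and 1.3% in IL-15. The median of the wider list was 0.13 in IL-2 and -0.01 in IL-15, against 0.11 and -0.01 over all genes.

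**Figure D4:**
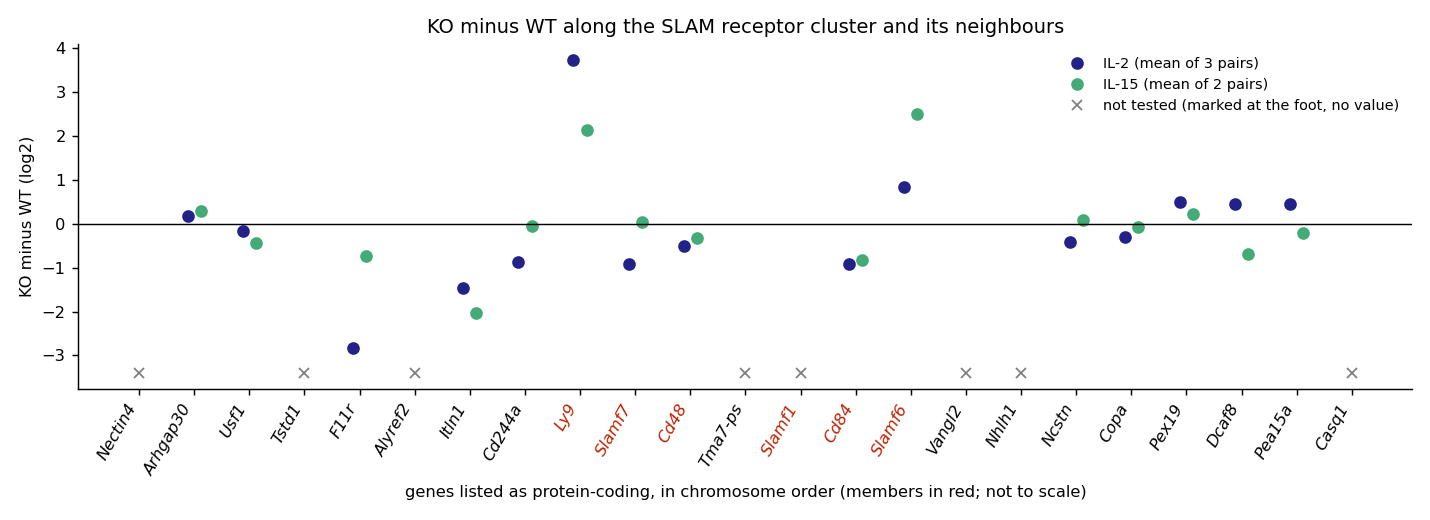
Mean log2 difference of KO from WT (y axis) for genes in chromosome order (x axis, not to scale), in IL-2 (blue) and IL-15 (green), with members in red type and untested genes as crosses at the foot that carry no value. Ly9 at 3.73 and 2.13 and Slamf6 at 0.84 and 2.50 lie above 0 while the tested members between them lie between -0.93 and 0.05.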

How the data were processed

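RNA of 10 samples was hybridised to Affymetrix mouse arrays, and the authors deposited 1 log2 value per probe set and array, obtained by GC-RMA in Partek (versions not given in the sources used here). They were used as deposited. Array medians lay between 3.20 and 3.37. Of 45101 probe sets, 34958 had 1 gene symbol, 932 several and 9211 none in the annotation used, and 34754 of the single symbols were matched to RefSeq. Depth does not apply to arrays, whose number limits the precision.

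Groups came from the labels. Same-numbered WT and KO arrays mirror each other around a common value in each cytokine, so the number was taken as a pair. With crossed numbers the sums differed, by a median of 0.193 (IL-2) and 0.170 (IL-15). KO effects were fitted with limma (version 3.58.1, R 4.3.3) over all 10 arrays with the pair as a block, which left 3 residual degrees of freedom, and cytokine effects with 4 group means, which left 6. P-values were adjusted by Benjamini-Hochberg over 9391 genes, and a gene was called at an adjusted p under 0.05 and at least 1.5-fold. A fold is given as "at least" where the lower group mean was under log2 5, and was then taken against log2 5. The fits were tested on simulated data.

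Members, lists and tests were chosen with earlier results of these data known. The named genes are all members, list genes called in a KO comparison (with the markers, and with Fyn, Cd244a and Ptpn11 added after their values were seen) and the 3 genes most like each member. Alternatives were other filters, scalings, probe set handling and thresholds, no block, and each array left out.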

Additional observations from a re-analysis of the deposited data

How the results depend on the processing

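The Ly9 call in IL-2 was made under all 16 alternatives, with differences of 3.52 to 3.88 and adjusted p of 6.86e-05 to 0.0383, and Sh2d1a was called between the cytokines in both genotypes under all 15. Without the pair as a replicate block, 2 members were called in IL-2 (Ly9 and Slamf7) and 2 in IL-15 (Ly9 and Slamf6), and the genes called rose from 1851 to 3803 in IL-2, from 122 to 1321 in IL-15 and from 0 to 1157 for the difference of the KO effects. The p-values behind those higher counts are too small, since that fit counts too many residual degrees of freedom. With the study's unadjusted threshold, 2 members were called in IL-2, 2 in IL-15, 1 for the difference (Ly9) and 4 between the cytokines in KO, and 3391, 1269 and 1106 genes in the first 3 of these. Without a filter on low values, 1 member was called between the cytokines in KO (Sh2d1a), and 842 genes were called in IL-2 and 0 in IL-15. Tested singly, 2924 probe sets were called in IL-2, and 8802 (WT) and 8337 (KO) between the cytokines. With 1 array left out, members called between the cytokines ranged from 1 to 4 in WT and from 1 to 3 in KO, the IL-2 count stayed at 1 and the IL-15 count at 0. Genes called in IL-2 then ranged from 537 (without either array of pair 1) and 1026 (pair 2) to 1525, and in IL-15 from 0 to 95.

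No called value of a member reversed. Uncalled values that did were the IL-2 effect of Sh2d1a with centring (-0.00087) and quantile normalization (-0.085) and the KO cytokine difference of Slamf7 with quantile normalization (-0.14). With 1 array left out, ranges that crossed 0 were, for the IL-2 effect, -1.12 to 0.017 for Cd48 and -0.23 to 0.25 for Sh2d1a. For the IL-15 effect they were -2.38 to 0.73 for Cd84 and -0.37 to 0.47 for Slamf7, and for the difference of the 2 effects -0.35 to 0.78 for Cd48 and -1.47 to 1.64 for Cd84. Between the cytokines they were -1.05 to 0.33 for Slamf6 in WT, and -0.72 to 0.33 for Ly9 and -0.16 to 0.26 for Slamf7 in KO. Quantile normalization shifted the tested genes of an array by a median of up to 0.22. The cause of these changes was not tested.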
